A study of Mus musculus with 18 samples.

Results

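Estrogen was added to cultures of intact mouse cumulus-oocyte complexes, in which the oocyte stays enclosed by its cumulus cells, and the cumulus cell transcripts were compared with those of intact complexes cultured without it. The comparison rests on 6 of the 18 arrays of the series, 3 with estrogen (E2 COC in the titles) and 3 without (COC), chosen by their titles. The cumulus cells came from antral follicles of female mice, and all 6 groups of the series were cultured before RNA was taken. The other 12 arrays hold oocyte-free complexes, emptied of their oocyte (OOX), and such complexes cocultured with oocytes (OOX + Oocytes), each with and without estrogen and with 3 arrays per group. They were used for the shared estimate of the spread and for the comparisons at the end. The strain, the age, any hormone priming, the estrogen concentration and the culture time are not stated in the labels. Whether replicate arrays stem from different mice or different culture wells is not in the labels, and the spread behind the p-values may therefore be technical. The replicate numbers 1 to 3 follow the order of the numbers in the titles.

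Estrogens act mainly through the nuclear receptors encoded by Esr1 and Esr2, which bind DNA at estrogen response elements or through other transcription factors and recruit coregulators. In the follicle, granulosa cells make estrogen, and cumulus cells, the granulosa cells around the oocyte, respond to it together with factors the oocyte secretes. A known part of this is the guanylyl cyclase NPR2 of cumulus cells, whose cyclic GMP holds the oocyte in meiotic arrest when it is bound by the peptide encoded by Nppc. Estrogen is also known to act on the production of inhibins and activins and on granulosa cell differentiation.

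The values are log2 expression levels, so that a difference of 1 is a 2-fold difference, and levels are compared only between arrays for the same probe set. In all, 12246 genes were tested, each by its brightest probe set. A gene was called where limma's Benjamini-Hochberg adjusted p lay under 0.05; a called gene is said to have risen or fallen. Standard errors (SE) come from a fit of all 18 arrays, with n = 3 per group. The median within-group standard deviation of a gene was 0.161 without and 0.150 with estrogen, each over 3 arrays. The first principal component of the 6 arrays held 60.3% of the variance and kept the 3 estrogen arrays apart from the 3 controls. All 6 arrays belong to 1 array series by their array names. The median of all genes moved by 0.03 with estrogen.

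The cells carried the transcripts of their label. The granulosa transcription factor gene Foxl2 lay at 10.67, 10.56 and 10.56 without estrogen and at 11.05, 10.88 and 11.12 with it. Inha, the inhibin alpha subunit gene, lay between 13.27 and 13.61 on the 6 arrays. Slc38a3, an amino acid transporter gene that marks cumulus cells, lay at 9.28 or above on all of them. Most markers of oocytes, endothelium and blood were dim, with 4 of 20 and 4 of 16 past the filter on low values, while 9 of 17 theca and stroma markers passed it. The smooth muscle actin gene Acta2 lay between 11.74 and 11.94 without estrogen. Of 20 oocyte markers with a probe set, the zona pellucida genes Zp2 and Zp3 and the oocyte growth factor gene Bmp15 stayed under 5 on every array. The theca enzyme gene Cyp17a1 lay between 4.73 and 5.07, the endothelial gene Pecam1 between 3.92 and 4.09 and the leukocyte gene Ptprc between 3.19 and 3.62, where the median of an array lay between 5.51 and 5.71. In bulk samples like these, fewer cells of a type and less RNA per cell cannot be told apart.

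Estrogen changed 708 genes, or 5.78% of those tested. Of these, 422 (3.45%) rose and 286 (2.34%) fell. The change was at least 2-fold for 186 of the genes that rose and 152 of those that fell, at least 4-fold for 36 and 25, and at least 8-fold for 9 and 4. Without regard to the test, 4065 genes (33.2%) had all 3 arrays with estrogen above or below all 3 without, 2169 of them above and 1896 below; 704 of the 708 called genes were among them. The balance of rises and falls depended on the scaling. After a second quantile normalization 379 genes rose and 395 fell, and after centring each array on its median 322 rose and 443 fell; the median of all genes then moved by -0.02 and -0.085. A fit on the 6 intact arrays alone called 1422 genes, among them 688 of the 708, and array weights gave 2214, among them all 708. The count fell to 382 without E2 COC replicate 3, to 436 without COC replicate 1 and to 471 without E2 COC replicate 2.

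**Figure D1:**
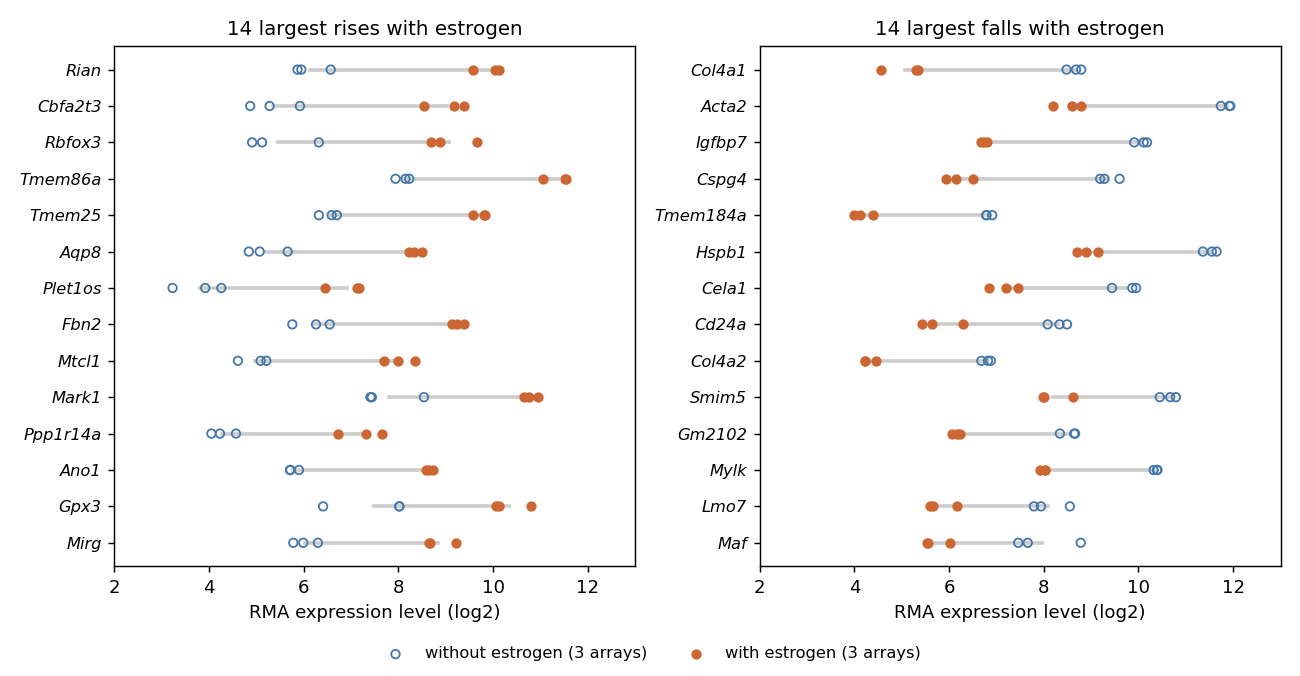
RMA expression level (log2, horizontal axis) of the 14 genes with the largest rise (left) and the 14 with the largest fall (right) among called genes whose groups do not overlap. Open circles are the 3 arrays of intact complexes without estrogen, filled circles the 3 with estrogen, and the grey bar joins the group means; for every gene shown the 3 arrays of a group lie on 1 side of the 3 of the other, which the choice of genes required.

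The largest rise was that of Rian, a long noncoding RNA of the imprinted Dlk1-Meg3 locus. It lay at 5.87, 6.57 and 5.95 without estrogen and at 9.58, 10.05 and 10.13 with it, a difference of 3.79 ± 0.33 (SE; 13.8-fold, adjusted p = 1.1e-06). Mirg, another noncoding RNA of that locus, rose by 2.82 ± 0.22, from 6.30, 5.99 and 5.78 to 8.64, 9.22 and 8.67. Cbfa2t3, which encodes a transcriptional corepressor, was at 5.28, 5.92 and 4.87 without and at 8.55, 9.17 and 9.39 with estrogen (difference 3.68 ± 0.32). Of its other 3 probe sets, 2 rose (1.25 and 1.20) and 1 gave -0.04. Rbfox3, a splicing factor gene known from neurons, differed by 3.62 ± 0.37, with COC replicate 2 at 6.32 above the other control arrays at 5.12 and 4.91. Its second probe set rose by 0.56. Tmem25, which encodes a membrane protein of the immunoglobulin superfamily, shared the smallest adjusted p with Ano1 (2.7e-09) and lay at 6.59, 6.70 and 6.32 against 9.83, 9.57 and 9.80. The second probe set of Tmem25 rose by 1.06. Ano1, a calcium-activated chloride channel gene, lay at 5.72, 5.90 and 5.71 against 8.59, 8.74 and 8.64.

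Transport and membrane genes stood beside matrix and enzyme genes among the other large rises. The water channel gene Aqp8 was at 4.84, 5.66 and 5.07 without and 8.50, 8.23 and 8.32 with estrogen, an 8.94-fold rise. Tmem86a, which encodes a lysoplasmalogenase, rose 9.62-fold, from 8.15, 8.23 and 7.94 to 11.51, 11.06 and 11.55. Fbn2, the gene of the microfibril protein fibrillin-2, rose 8.32-fold, and its second probe set rose by 3.39 on the log2 scale. Gpx3, the secreted glutathione peroxidase gene, rose 7.19-fold, with a wide spread without estrogen (8.02, 8.02 and 6.41). Notum, which encodes a secreted enzyme that inactivates WNT ligands, rose 6.82-fold, from 5.98, 6.08 and 5.66 to 8.66, 8.56 and 8.81. The kinase gene Mark1, the microtubule crosslinking factor gene Mtcl1, the myosin phosphatase inhibitor gene Ppp1r14a and the noncoding Plet1os completed the 14, with differences between 2.95 and 3.11. For Ano1, a second, dimmer probe set gave 0.20 with an adjusted p of 0.44. For Mark1, a dimmer probe set gave 0.07, while its others gave 2.39, 1.69 and 1.55, each called.

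The largest falls were those of Col4a1, Acta2, Igfbp7 and Cspg4. Col4a1, the alpha 1 chain of type IV collagen, fell 12.0-fold, from 8.79, 8.48 and 8.68 to 4.56, 5.30 and 5.35 (-3.58 ± 0.32, adjusted p = 1.3e-06). A dimmer probe set of Col4a1 gave a smaller fall of -1.46, which was called. Acta2, smooth muscle alpha actin, fell 10.1-fold, from 11.92, 11.74 and 11.94 to 8.78, 8.19 and 8.60. Igfbp7, a secreted protein that binds insulin-like growth factors weakly, had even values within both groups, at 9.91, 10.11 and 10.18 against 6.79, 6.73 and 6.68 (-3.33 ± 0.19). A second, dimmer probe set of Igfbp7 gave -0.11 with an adjusted p of 0.77. Cspg4, the NG2 proteoglycan gene, fell 8.94-fold, and Mylk, the myosin light chain kinase gene, fell 5.22-fold, from 10.32, 10.40 and 10.39 to 8.02, 8.03 and 7.91. Dimmer probe sets gave -1.51 for Cspg4 and -0.73 and -3.40 for Mylk, each called.

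The small heat shock protein gene Hspb1 fell from 11.65, 11.55 and 11.36 to 9.14, 8.89 and 8.70, a 6.11-fold difference. Cela1, which encodes an elastase, fell 6.01-fold, the surface glycoprotein gene Cd24a 5.71-fold and the transcription factor gene Maf 4.81-fold. Maf spread widely without estrogen, at 8.78, 7.46 and 7.66, against 6.01, 5.55 and 5.54 with it. Its dimmer probe sets gave -3.16 and -1.35, which were called, and -0.98 and -0.20, which were not. Tmem184a, Smim5, Gm2102 and Lmo7 completed the 14 falls, with differences of -2.66, -2.43, -2.40 and -2.29.

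The gene lists cover 430 tested genes, and their counts are read against the 3.45% of all genes that rose and the 2.34% that fell. The estrogen receptor genes themselves were not called. Esr1 lay at 9.09, 9.16 and 8.83 without and 8.86, 8.85 and 8.76 with estrogen (-0.20 ± 0.31, adjusted p = 0.77). Esr2 lay at 6.93, 7.20 and 7.45 and at 7.03, 6.91 and 6.71 (-0.31 ± 0.24, adjusted p = 0.53). Of 15 receptor and coregulator genes, 1 rose and 1 fell. Nrip1, the corepressor RIP140, rose 1.65-fold (adjusted p = 0.020), a call that was lost without COC replicate 2 or 3 or E2 COC replicate 2 or 3 and under both other scalings, where the highest adjusted p over all alternatives was 0.12. Rerg, an estrogen-regulated RAS-like growth inhibitor gene, fell 2.63-fold, from 4.90, 5.57 and 5.64 to 4.15, 3.76 and 4.01.

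Of 30 tested genes known as estrogen responsive in other tissues, 3 rose and 1 fell, and the list median was -0.05, against 0.03 over all genes. Greb1, a coactivator gene that is a known estrogen target, rose 1.77-fold, from 11.57, 11.83 and 11.83 to 12.39, 12.79 and 12.51 (0.82 ± 0.14, adjusted p = 0.0015). All 3 of its other probe sets pointed up (1.17, 0.97 and 0.77), and 1 of them was called. The kinase gene Sgk1 rose 3.66-fold, with COC replicate 1 at 5.17 far below the other control arrays at 6.95 and 6.79. The growth factor gene Tgfa rose 2.49-fold by its brightest probe set, while its other 2 gave -0.08 and -0.07. Igfbp4, which binds insulin-like growth factors, fell 2.66-fold (adjusted p = 0.018), and the call was lost without COC replicate 1 or 2 or E2 COC replicate 3, with adjusted p-values up to 0.11. Pgr, the progesterone receptor gene and another known target, stayed between 4.28 and 4.47 on all 6 arrays, below the filter.

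The promoter of Greb1 is printed because it carries an arm of the estrogen response element close to the start of a gene that rose. The RefSeq window (GRCm38.p6, chr12:16800837-16801136, minus strand, 250 bases before to 50 after the start of transcription) reads as follows, with TGACCT in capitals, the first letter of which lies at position -88 relative to the start. No build is named for the array annotation.
Greb1: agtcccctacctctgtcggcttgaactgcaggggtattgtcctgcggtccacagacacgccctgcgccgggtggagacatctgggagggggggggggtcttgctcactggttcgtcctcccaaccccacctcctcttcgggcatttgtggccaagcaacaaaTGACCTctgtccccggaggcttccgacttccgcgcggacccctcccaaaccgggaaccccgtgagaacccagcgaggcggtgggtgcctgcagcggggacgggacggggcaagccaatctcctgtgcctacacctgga

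Of the tested genes, 9897 had such a window of 300 bases. The full element was searched as GGTCA and TGACC with 3 bases of any kind between them, which reads the same on either strand. It occurred exactly in 3 of the 9897 genes (0.0303%), none of them called. With up to 1 mismatch in its 10 fixed letters it occurred in 0.96% of the tested genes, in 4 of the 339 genes that rose (1.18%) and in 3 of the 218 that fell (1.38%). The single arm AGGTCA or TGACCT, on either strand and overlapping the full element by its letters GGTCA, occurred in 15.0% of the tested genes, 18.6% of those that rose and 12.8% of those that fell. These shares describe letters in a window and were not tested. The 7 near matches in promoters of called genes are printed 5′ to 3′ on the strand of the gene, with the mismatch in capitals. Positions count from 1 at the 5′ end of the element, and the letter of the element comes before that of the site.
Psen2 (rose, chr1:180245988-180246000, G2T): gTtcagagtgacc
Fam120c (rose, chrX:151344036-151344048, G10C): ggtcagcctCacc
Slc29a3 (rose, chr10:60752774-60752786, A11G): ggtcacagtgGcc
Ak4 (rose, chr4:101419560-101419572, A5T): ggtcTgactgacc
Apobr (fell, chr7:126584973-126584985, C12G): ggtcattgtgaGc
Plekhh3 (fell, chr11:101171476-101171488, A5T): ggtcTccctgacc
Sectm1b (fell, chr11:121063582-121063594, C12G): ggtcaggatgaGc
Psen2, a presenilin gene, rose by 1.19 and Plekhh3 fell by 1.02 on the log2 scale, and the changes of the other 5 lay between -1.09 and 1.00.

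Among genes of steroid metabolism, the transcription factor that governs them rose, while most enzymes were not called. Nr5a1, steroidogenic factor 1, lay at 8.72, 8.85 and 7.75 without and at 10.73, 10.48 and 10.94 with estrogen (2.28 ± 0.32, 4.85-fold, adjusted p = 0.00018). The list of progesterone and androgen synthesis held 12 tested genes, of which 3 rose and 1 fell, with a median of 0.32. Hsd11b2, which inactivates glucocorticoids, rose 2.00-fold, from 8.35, 8.60 and 8.52 to 9.58, 9.35 and 9.55. Scarb1, the receptor for high density lipoprotein, rose 1.83-fold. The orphan receptor gene Nr4a1 fell 1.89-fold (adjusted p = 0.015), and lost its call without COC replicate 2 or 3 or E2 COC replicate 2, with adjusted p-values up to 0.075. Star, the cholesterol transfer protein gene, and Cyp11a1, the side chain cleavage enzyme gene, had adjusted p-values of 0.90 and 0.50. Star lay between 5.68 and 5.82 on the 6 arrays.

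Of 7 genes of estrogen synthesis and inactivation, 1 rose. This was Hsd17b11, a 17-beta-hydroxysteroid dehydrogenase gene, which rose 1.79-fold by its brightest probe set but gave 0.49 with an adjusted p of 0.43 at the other. Hsd17b1, the granulosa enzyme that makes estradiol from estrone, stood at 13.01, 13.13 and 13.14 without and 13.31, 13.06 and 13.19 with estrogen (0.09 ± 0.21, adjusted p = 0.85). Sult1e1, the estrogen sulfotransferase gene, stayed between 3.51 and 3.93, below the filter. Cyp19a1 and Lhcgr are not analysed here, since no probe set carried either alone. Among 17 hormone and growth factor receptor genes none rose and 1 fell. Ptger2, a receptor for prostaglandin E2, fell 2.23-fold, from 6.55, 7.12 and 7.07 to 5.34, 5.74 and 6.18. Fshr, the receptor for follicle-stimulating hormone, was at 6.66, 7.56 and 7.02 without and 7.97, 7.49 and 8.24 with estrogen, where the groups overlapped (0.82 ± 0.27, adjusted p = 0.088).

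The receptor arm of the meiotic arrest pathway rose, and its ligand was not called. Npr2 lay at 8.78, 9.04 and 8.64 without estrogen and at 10.89, 10.88 and 10.87 with it (2.06 ± 0.22, 4.17-fold, adjusted p = 1.1e-05). The arrays with estrogen differed by no more than 0.02 from each other. Nppc lay at 7.72, 7.80 and 7.16 without and 7.36, 7.18 and 7.72 with estrogen, with overlapping groups (-0.14 ± 0.21, adjusted p = 0.77). Of the 13 tested genes of the pathway Npr2 was the only call, and the list median was -0.04. The phosphodiesterase gene Pde5a had the next largest difference, at -1.20 with an adjusted p of 0.056.

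Both activin subunit genes rose, and the genes of their partner and antagonist were not called. Inhba, the beta A subunit, went from 10.79, 10.98 and 10.40 to 12.80, 12.67 and 13.03 (2.11 ± 0.18, 4.32-fold, adjusted p = 1.0e-06). Inhbb, the beta B subunit, went from 10.52, 10.47 and 10.01 to 12.57, 12.72 and 12.79 (2.36 ± 0.32, 5.13-fold), and its second probe set rose by 1.96. Inha, whose product joins either beta subunit to form an inhibin, differed by 0.19 ± 0.16 (adjusted p = 0.57). Follistatin, the activin antagonist encoded by Fst, differed by 0.28 ± 0.21 (adjusted p = 0.50), and Amh by -0.22 ± 0.13 (adjusted p = 0.40). Among the 18 ligands and antagonists of the family 3 rose and 4 fell, with a median of 0.01. Ltbp1, which tethers latent TGF-beta, rose 1.80-fold; the call was lost without COC replicate 3 or E2 COC replicate 2, with adjusted p-values up to 0.085. Fstl1, a secreted follistatin-like protein gene, fell 3.24-fold, from 7.16, 7.57 and 7.28 to 5.41, 5.85 and 5.66. The falls of Fstl3 and Tgfb1 were 1.67-fold and 1.47-fold. Tgfbi, a TGF-beta induced matrix protein gene, fell 1.80-fold, and lost its call without E2 COC replicate 3 (highest adjusted p 0.067).

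Of 26 receptors, SMADs and target genes, 2 rose and 2 fell, and the median was 0.20. The ID proteins, which block helix-loop-helix transcription factors, went both ways. Id4 fell 3.68-fold, from 8.27, 8.21 and 7.84 to 6.29, 5.85 and 6.54. Id1 and Id3 were the 2 rises, at 1.54-fold and 1.46-fold. Both lost their calls after median centring and without COC replicate 3 or E2 COC replicate 1, and Id1 also, among other alternatives, without COC replicate 2, E2 COC replicates 2 and 3 and the estrogen coculture replicate 3, with adjusted p-values up to 0.18 and 0.14. Pmepa1, a target and inhibitor of TGF-beta signalling, fell 2.71-fold, from 10.71, 10.47 and 10.32 to 8.97, 9.21 and 9.00.

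The called members of the matrix and basement membrane list all fell, while the fibrillin-2 gene Fbn2, outside the list, rose 8.32-fold. Of 25 tested list members, none rose and 7 fell, where 2.34% of all genes fell, and the median was -0.27. In the fit on the 6 intact arrays alone 3 rose and 8 fell. By their brightest probe sets, Col4a1 and Col4a2, the paired chains of type IV collagen, fell 12.0-fold and 5.62-fold. Col4a2 went from 6.82, 6.88 and 6.68 to 4.23, 4.46 and 4.22. Sparc, a matrix protein that binds collagen IV, fell 3.38-fold, from 11.34, 11.57 and 11.24 to 9.94, 9.46 and 9.48. Its dimmer probe sets gave -1.68, which was called, and -0.21, which was not. The laminin alpha 1 gene Lama1 fell 2.14-fold, from 9.79, 9.78 and 10.06 to 8.83, 8.65 and 8.85. The nidogen gene Nid1 fell 1.94-fold, the protease inhibitor gene Timp1 1.95-fold and the metalloprotease gene Mmp11 2.36-fold. The fibronectin gene Fn1, with a difference of 0.43, was not called (adjusted p = 0.38).

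Col4a1 and Col4a2 are neighbours that are transcribed away from each other, and their promoter windows overlap. The window of Col4a2 is shown for that reason (RefSeq, GRCm38.p6, chr8:11312555-11312854, plus strand). Its 78 bases in capitals are shared with the window of Col4a1 on the minus strand (chr8:11312777-11313076), and the capitals begin at position -28 relative to the start of Col4a2.
Col4a2: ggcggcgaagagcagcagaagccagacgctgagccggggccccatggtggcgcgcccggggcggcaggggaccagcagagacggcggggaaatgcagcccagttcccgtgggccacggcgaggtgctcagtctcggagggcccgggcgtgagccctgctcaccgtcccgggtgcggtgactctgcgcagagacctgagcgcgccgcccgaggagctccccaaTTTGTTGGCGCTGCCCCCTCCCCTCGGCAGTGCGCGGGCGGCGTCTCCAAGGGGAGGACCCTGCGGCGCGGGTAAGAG
Neither window held the full estrogen response element with up to 1 mismatch, which says only that these letters are not in it.

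Hedgehog genes split between ligand and targets. Ihh, the Indian hedgehog ligand that granulosa cells send to theca cells, rose 2.11-fold, from 7.33, 7.39 and 7.13 to 8.78, 8.05 and 8.25. Its receptor gene Ptch1, itself a target of the pathway, fell 2.86-fold, from 9.69, 9.44 and 9.86 to 7.99, 8.29 and 8.16. The dimmer probe sets of Ptch1 gave -0.99 and -0.21, neither of them called. The effector gene Gli1, another target, fell 3.68-fold, from 7.38, 7.57 and 7.72 to 5.68, 5.60 and 5.75 (adjusted p = 2.5e-06). The Notch targets also went both ways, with Hey2 up 2.15-fold and Heyl down 2.89-fold. In all, 2 of the 17 tested Hedgehog and Notch genes rose and 3 fell, with a median of -0.12.

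Gli1 and Ptch1 are also markers of theca and stroma, and with them the smooth muscle markers Acta2 and Tagln fell. Tagln, which encodes transgelin, went from 7.85, 7.43 and 7.51 to 5.97, 6.05 and 5.83, a 3.13-fold fall. Of the 17 theca and stroma markers with a probe set 9 were tested, of which 4 fell and none rose. The summed level of all 17 lay between 12.42 and 12.59 (log2) without estrogen and between 10.75 and 10.88 with it. Without estrogen Acta2 made the largest part of that sum, at 11.74 to 11.94, against 8.19 to 8.78 with estrogen. The sum therefore follows Acta2 more than the whole set, of which 5 tested markers were not called. The defining theca gene Cyp17a1 and the collagen gene Col1a1 were below the filter in both groups, at 4.64 to 5.07. Dcn differed by -0.05 and Pdgfra by 0.18, with adjusted p-values of 0.94 and 0.72. Pdgfrb, a growth factor receptor gene of stromal cells and pericytes, pointed the other way, at 7.91, 7.62 and 6.93 without and 8.56, 8.55 and 8.52 with estrogen (1.06 ± 0.50, adjusted p = 0.26). It was called higher in the fit on the 6 intact arrays and with array weights, which gave 1 marker higher and 4 lower, and its dimmer probe set gave -0.03. The part of stromal cells in the falls of Acta2, Tagln and Mylk was not tested.

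Other cell types gave smaller differences. The 4 tested endothelial and blood markers had no call. The summed level of all 16 with a probe set was 9.02 to 9.15 without and 9.02 to 9.12 with estrogen. Among the 4 tested, Lyz2 differed most, by -0.27 (adjusted p = 0.48). None of them had an unadjusted p under 0.05, and neither the fit on the 6 intact arrays nor array weights called any. Of 4 tested oocyte markers 1 fell. The summed level of all 20 with a probe set was 10.52 to 10.70 without and 9.70 to 9.96 with estrogen. The marker that fell was Uchl1, a ubiquitin hydrolase gene expressed in oocytes and neurons. It fell 3.08-fold, from 9.71, 9.98 and 10.07 to 8.63, 7.91 and 8.35. Without estrogen it made the largest part of the summed level. Gdf9, the oocyte growth factor gene, stood between 6.77 and 6.90 on all 6 arrays (adjusted p = 0.85). In oocyte-free complexes its means were as high, at 6.94 without and 6.80 with estrogen, so this probe set cannot be read as a measure of oocyte RNA. Among 5 surface epithelium markers the keratin gene Krt8 rose 1.92-fold and Lgals7 fell 1.75-fold. Krt8 lost its call when any of 5 of the 6 intact arrays, all but E2 COC replicate 2, was left out (adjusted p up to 0.17). Lgals7 lost its call without COC replicate 1 or 2 or E2 COC replicate 2 (up to 0.096).

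Both cumulus and mural granulosa markers leaned up. Of 12 cumulus markers 2 rose and none fell, with a median of 0.58, and of 13 mural markers 3 rose and none fell, with a median of 0.60. The cumulus markers were Npr2 and Slc38a3, a glutamine transporter gene that went from 9.28, 9.30 and 9.29 to 10.79, 10.60 and 10.83 (2.73-fold). The mural markers were Inhba, Inhbb and, by its brightest probe set alone, Gata4. In the fit on the 6 intact arrays alone 6 cumulus markers rose and 1 fell, and 6 mural markers rose. Kitl, the KIT ligand gene, a granulosa signal to the oocyte, was at 6.63, 6.37 and 5.62 without and at 6.98, 7.42 and 7.37 with estrogen. It was not called (1.05 ± 0.36, adjusted p = 0.11), and its other probe sets gave -0.30, 0.41 and 0.57.

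Among 16 granulosa transcription factor genes 4 rose and 2 fell. Nr5a1, given above, had the largest rise. Gata4 rose 2.33-fold, Foxo3 1.51-fold and Bnc2 1.64-fold, each with an adjusted p between 0.044 and 0.048. Each of these 3 calls was lost in 15 to 17 of the 31 alternatives, all 3 without COC replicate 2 or 3 or E2 COC replicate 2 or 3, with adjusted p-values up to 0.25. A dimmer probe set of Gata4 gave 0.06 with an adjusted p of 0.88, and that of Foxo3 gave 0.80, which was called. Runx1, a transcription factor of the ovulatory response, fell 2.17-fold, from 9.09, 8.71 and 8.75 to 7.93, 7.61 and 7.65, and its other 5 probe sets gave -0.03 to -0.85, none called. Egr1 fell 2.61-fold, from 10.80, 10.76 and 10.81 to 9.02, 9.86 and 9.34. Runx1 was the only call among 8 tested genes of cumulus expansion and ovulation. Has2, the hyaluronan synthase gene, differed by -0.54 ± 0.23 (adjusted p = 0.20), and Ptgs2 stayed between 3.30 and 3.52, below the filter.

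No cell cycle gene was called in intact complexes. Of 36 tested, the differences ran from -0.53 for Rrm1 to 0.72 for Bub1, with a median of 0.13; 3 had an unadjusted p under 0.05. The fit on the 6 intact arrays alone called 2 higher and 1 lower, as did array weights. Bub1, a mitotic checkpoint kinase gene, was at 6.59, 7.02 and 7.12 without and 7.35, 7.83 and 7.70 with estrogen (adjusted p = 0.10). Mki67, the proliferation marker, was at 10.16, 9.64 and 10.19 without and 9.94, 10.44 and 10.54 with estrogen, with overlapping groups. Ccnd2, the cyclin D2 gene that gonadotropin and estrogen act on in granulosa cells, differed by 0.01 ± 0.20 (adjusted p = 0.99). None of its 6 other probe sets was called, and none of the 14 D cyclin and inhibitor genes had an unadjusted p under 0.05.

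The median of 19 cholesterol synthesis genes was 0.49, with 3 rises, no fall and 8 genes at an unadjusted p under 0.05, all higher. Lss, the lanosterol synthase gene, rose 1.82-fold, from 8.58, 8.39 and 8.64 to 9.35, 9.31 and 9.55. Fdft1 rose 1.88-fold and Dhcr7 1.49-fold, but both lost their calls when any of the 6 intact arrays was left out, with adjusted p-values up to 0.18 and 0.097. The median of 20 glycolysis genes was 0.38, with 1 rise. This was Slc16a1, a monocarboxylate transporter gene, which went from 8.51, 8.64 and 8.52 to 10.14, 10.25 and 10.40 (3.26-fold). In the fit on the 6 intact arrays alone 7 cholesterol and 5 glycolysis genes rose.

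Of 20 amino acid transporter genes 2 rose and 1 fell. Slc38a3 and Slc38a4, which belong to 1 transporter family, went in opposite directions, Slc38a4 falling 2.63-fold from 7.66, 8.21 and 8.33 to 6.83, 6.41 and 6.77. Slc38a1 rose 1.53-fold with an adjusted p of 0.048, a call lost in 18 of 31 alternatives, among them each of the 6 that left out an intact array (up to 0.18).

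Immediate early genes fell more often than they rose. Of 22 immediate early and heat shock genes 4 fell and 1 rose, and 7 had an unadjusted p under 0.05 in the lower direction. Ier3, which encodes a regulator of cell survival, fell 2.97-fold, from 10.47, 10.56 and 10.60 to 9.20, 8.62 and 9.10. Dusp1, a phosphatase gene that limits MAP kinase signals, fell 2.69-fold, and lost its call without COC replicate 1 or E2 COC replicate 2 (up to 0.073). Fos, in contrast, differed by 0.11 (adjusted p = 0.85). The heat shock gene Hspa1b rose 2.50-fold; the call was lost without COC replicate 1 or 3, without any of the 3 E2 COC arrays, and without the estrogen coculture replicate 2 (up to 0.18).

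Bmf, a BH3-only gene that promotes cell death, fell 3.95-fold, from 6.62, 7.31 and 6.96 to 5.17, 5.05 and 4.72. Bcl2l1, which encodes the survival protein BCL-XL, rose 1.65-fold, from 8.01, 8.03 and 7.99 to 8.83, 8.64 and 8.72, but not as the mean of its probe sets (0.09, adjusted p = 0.70). With Foxo3 these were the calls among 18 genes of cell death and survival. Ddit4, an inhibitor of mTORC1, fell 2.83-fold, from 10.28, 9.64 and 9.07 to 8.48, 8.15 and 7.85, and lost its call without COC replicate 1 or E2 COC replicate 3 (up to 0.069). Among 21 genes of ATF4 and unfolded protein stress 1 rose and 2 fell, with a median of 0.25. The others were Vldlr, up 1.81-fold, and Phgdh, down 1.76-fold, whose adjusted p-values of 0.041 and 0.049 passed 0.05 when any of the 6 intact arrays was left out (up to 0.14 and 0.21).

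In the insulin-like growth factor system 1 gene rose and 3 fell of 16. Igf1 itself lay at 11.41, 11.42 and 11.28 without and at 11.13, 11.42 and 11.27 with estrogen (-0.10 ± 0.25, adjusted p = 0.87), and its other 3 probe sets gave 0.33 to 0.37, none called. Besides Igfbp7 and Igfbp4, the insulin receptor substrate gene Irs2 fell 1.98-fold, a call lost without COC replicate 1 (adjusted p = 0.055). Stc1, which encodes a glycoprotein that inhibits the protease of IGF-binding proteins, rose 2.12-fold, a call lost when any of the 6 intact arrays was left out (up to 0.13). Among 15 genes of vessels and chemokines, Angpt4, a TIE2 ligand gene, rose 4.18-fold, from 5.55, 5.46 and 5.18 to 7.59, 7.24 and 7.55. Angpt2 rose 2.51-fold by its brightest probe set, with -0.03 at the other, and lost its call without COC replicate 1 or E2 COC replicate 1 (up to 0.053). Edn1, which encodes endothelin-1, fell 2.65-fold, from 7.63, 7.59 and 7.58 to 6.41, 6.02 and 6.15. Of 17 WNT pathway genes the receptor gene Fzd1 alone was called, and it fell 1.71-fold.

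**Figure D2:**
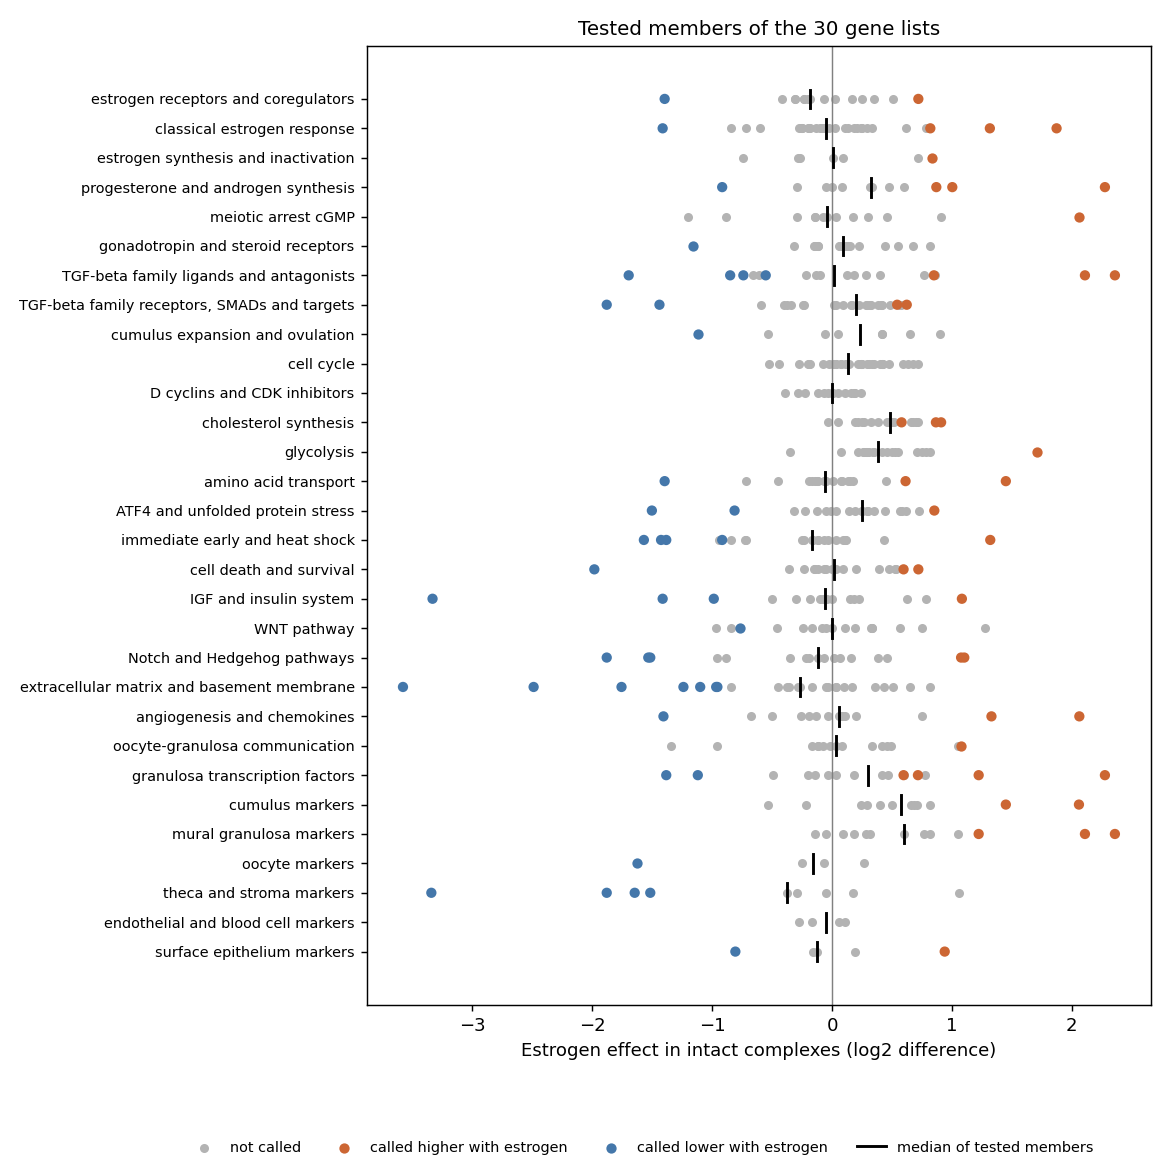
Estrogen effect in intact complexes (log2 difference, horizontal axis) for each tested member of the 30 gene lists (vertical axis). Grey points are genes that were not called, orange points genes called higher and blue points genes called lower with estrogen, and the black bar is the median of a list; the 7 called matrix genes and the 4 called theca and stroma markers all lie to the left of 0, and the cell cycle list has no coloured point.

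The estrogen effect in cocultures of oocyte-free complexes with oocytes, which share no array with the intact complexes, ran close to it. There 570 genes (4.65%) were called, 284 higher (2.32%) and 286 lower (2.34%). Of the 708 genes called in intact complexes, 418 were called the same way in cocultures and 0 the opposite way; these are 59.0% of the intact calls and 73.3% of the coculture calls. For genes that rose the share was 50.9% (215 genes) and for genes that fell 71.0% (203 genes). Leaving out 1 array gave 300 to 555 shared calls. The genes that rose in intact complexes had a median change of 0.95 there and 0.73 in cocultures, and those that fell had -1.05 and -0.98, where the first value of each pair carries the choice of the genes.

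The difference between the effects was tested directly, and limma called no gene (0.0%), with 218 genes at an unadjusted p under 0.05. The fit with array series as a term called 1 gene and array weights 2. Col4a1 fell by 3.58 in intact complexes and by 4.33 in cocultures, and Acta2 fell by 3.34 and fell by 2.59. Npr2 rose by 2.06 and 2.14, Inhba by 2.11 and 2.06, Inhbb by 2.36 and 2.28, and Greb1 by 0.82 and 0.79. The gene lists gave similar counts, with 8 of 25 matrix genes and 4 of 9 theca and stroma markers lower in cocultures. Sgk1, by contrast, was called in intact complexes (1.87) and not in cocultures (0.81, adjusted p = 0.33), but the difference itself was not called.

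In oocyte-free complexes estrogen gave 1181 calls (9.64%), 738 higher (6.03%) and 443 lower (3.62%). Their 3 arrays without estrogen lie in array series 2 and 3, while replicates 1 and 2 with estrogen lie in series 1. The effects of estrogen and of the array series can thus not be fully told apart in this comparison. Replicate 1 with estrogen also has conflicting labels. Of the intact calls, 179 were called the same way in oocyte-free complexes and 36 the opposite way. The shared calls are 25.3% of the intact and 15.2% of the oocyte-free calls. All 3 culture types called 132 genes the same way, 76 higher and 56 lower, among them Npr2, Inhba, Nr5a1, Rian, Fbn2, Col4a1 and Igfbp7. Npr2 rose by 1.56 without oocytes, Inhba by 1.44 and Nr5a1 by 1.27. Inhbb, at 4.87 to 6.35 without estrogen and 6.16 to 6.60 with it, was not called there (0.69, adjusted p = 0.18), and its difference from the intact effect had an adjusted p of 0.055.

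**Figure D3:**
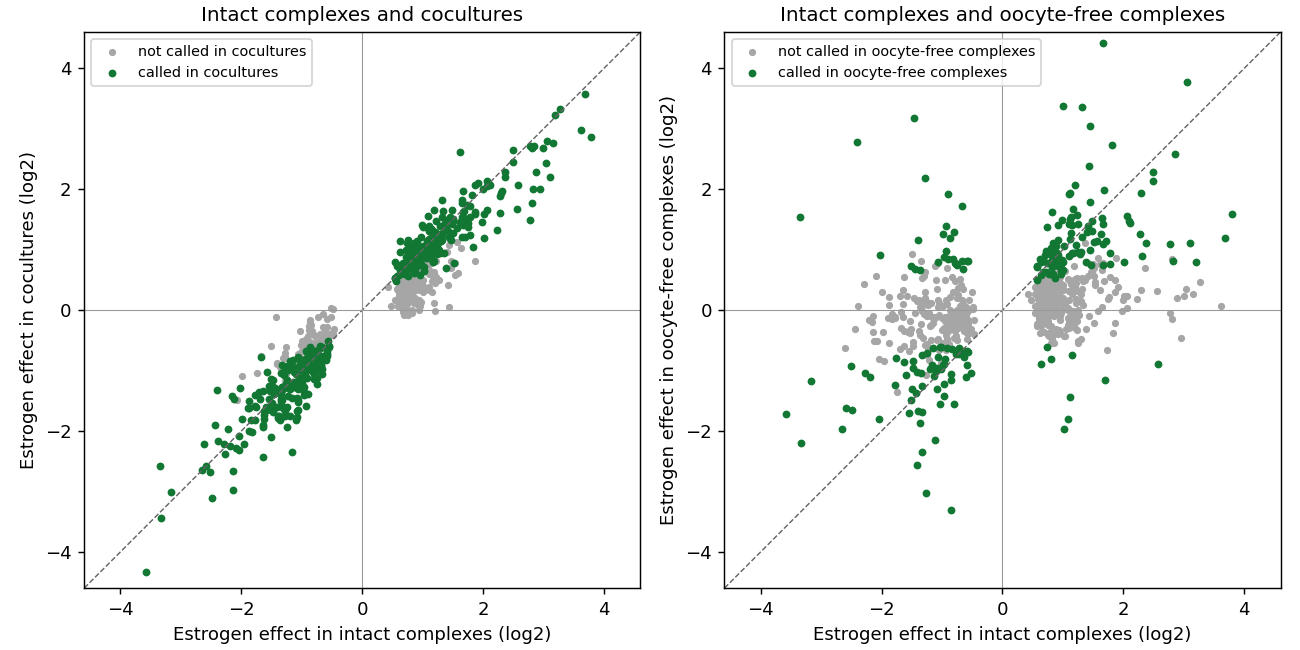
Estrogen effect (log2 difference) in intact complexes (horizontal axis) against that in cocultures (left) and in oocyte-free complexes (right) for the 708 genes called in intact complexes; green points were also called in the other culture type and the dashed line marks equal effects. On the left 418 green points lie on the same side of 0 as in intact complexes and 0 on the other, and on the right 179 and 36.

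The estrogen effect differed between intact and oocyte-free complexes for 393 genes (3.21%), by the interaction in limma, with 174 effects higher and 219 lower in intact complexes. The 3 oocyte-free arrays without estrogen and 1 of the 3 with it (replicate 3) lie outside the array series of the intact complexes. A term for the series in the fit left 383 calls, and 303 of the 393 were among them. The oocyte-free array with estrogen replicate 1 is titled as treated, while its source name and treatment label give no estrogen; without it 268 genes were called, 261 of them among the 393. Without the oocyte-free array with estrogen replicate 3, the count was 689. The oocyte-free arrays then left lie in series 1 with estrogen and in series 2 and 3 without it. Estrogen and array series cannot be told apart in that count.

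The 3 largest differences with a negative sign, for Gm2102, Acta2 and Sgpp2, were of genes that fell in intact complexes and rose in oocyte-free ones. Acta2, which fell by 3.34 in intact complexes, rose by 1.54 without oocytes, from 9.73, 9.64 and 10.51 to 11.99, 11.72 and 10.79 (difference of effects -4.88, adjusted p = 8.2e-06). Gm2102 fell by 2.40 and rose by 2.78. Sgpp2, a sphingosine-1-phosphate phosphatase gene, fell by 1.46 and rose by 3.18, from 4.45, 5.87 and 6.07 to 9.31, 8.25 and 8.36. The fall of Sgpp2 in intact complexes lost its call without COC replicate 2 or 3 or E2 COC replicate 2 or 3 (up to 0.065), while the difference kept its call with the series as a term (-4.28, adjusted p = 0.00018). Ptch1 fell by 1.52 and rose by 0.73, with a difference of -2.24 (adjusted p = 4.9e-05). Within array series 3, the oocyte-free array with estrogen lay above the mean of 2 without it by 1.11 for Acta2, 3.20 for Sgpp2 and 0.98 for Ptch1, in single comparisons with no test.

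Nppc was called in oocyte-free complexes and not in intact ones or cocultures, and its difference between intact and oocyte-free complexes was called too. Without oocytes it rose by 1.53, from 5.53, 5.60 and 5.83 to 7.47, 7.16 and 6.93, against -0.14 in intact complexes (difference -1.67, adjusted p = 0.0030). Crh, the corticotropin-releasing hormone gene, was dim in intact complexes, at 2.62 to 3.69, and rose by 3.86 in oocyte-free ones. Slc38a3 and Hsd11b2 rose in both, by 1.45 and 1.00 in intact and by 3.04 and 3.38 in oocyte-free complexes. For Hsd11b2 the oocyte-free arrays went from 4.66, 4.56 and 4.25 to 8.36, 7.71 and 7.54, where the intact arrays lay between 8.35 and 9.58.

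With the opposite sign, several of the leading rises of intact complexes had smaller effects without oocytes. Ano1 rose by 2.88 in intact and changed by 0.20 in oocyte-free complexes (difference 2.68, adjusted p = 2.8e-06). Rbfox3 rose by 3.62 and changed by 0.06, but its oocyte-free arrays without estrogen, at 7.82, 7.52 and 8.07, already lay above the intact ones. Cd83, an immunoglobulin superfamily gene, rose by 2.57 and fell by 0.90, from 5.38, 5.02 and 4.57 to 4.19, 3.79 and 4.30. Adamts9, a metalloprotease gene, rose by 1.01 in intact complexes and fell by 1.97 without oocytes; the intact call was lost without E2 COC replicate 2 and as the mean of its probe sets (adjusted p up to 0.11). Tle2, Cemip and Pdgfrb were not called in intact complexes and fell by 2.68, 3.44 and 2.16 in oocyte-free ones. Cemip, a hyaluronan-binding protein gene, went there from 10.60, 9.97 and 10.18 to 6.16, 6.20 and 8.06, where replicate 3 of the estrogen arrays is the one outside the array series of the other 2. For Pdgfrb the same array stood at 8.21, against 5.77 and 5.74 on the other 2, and the difference of effects was not called without the array whose labels conflict (2.81, adjusted p = 0.051).

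**Figure D4:**
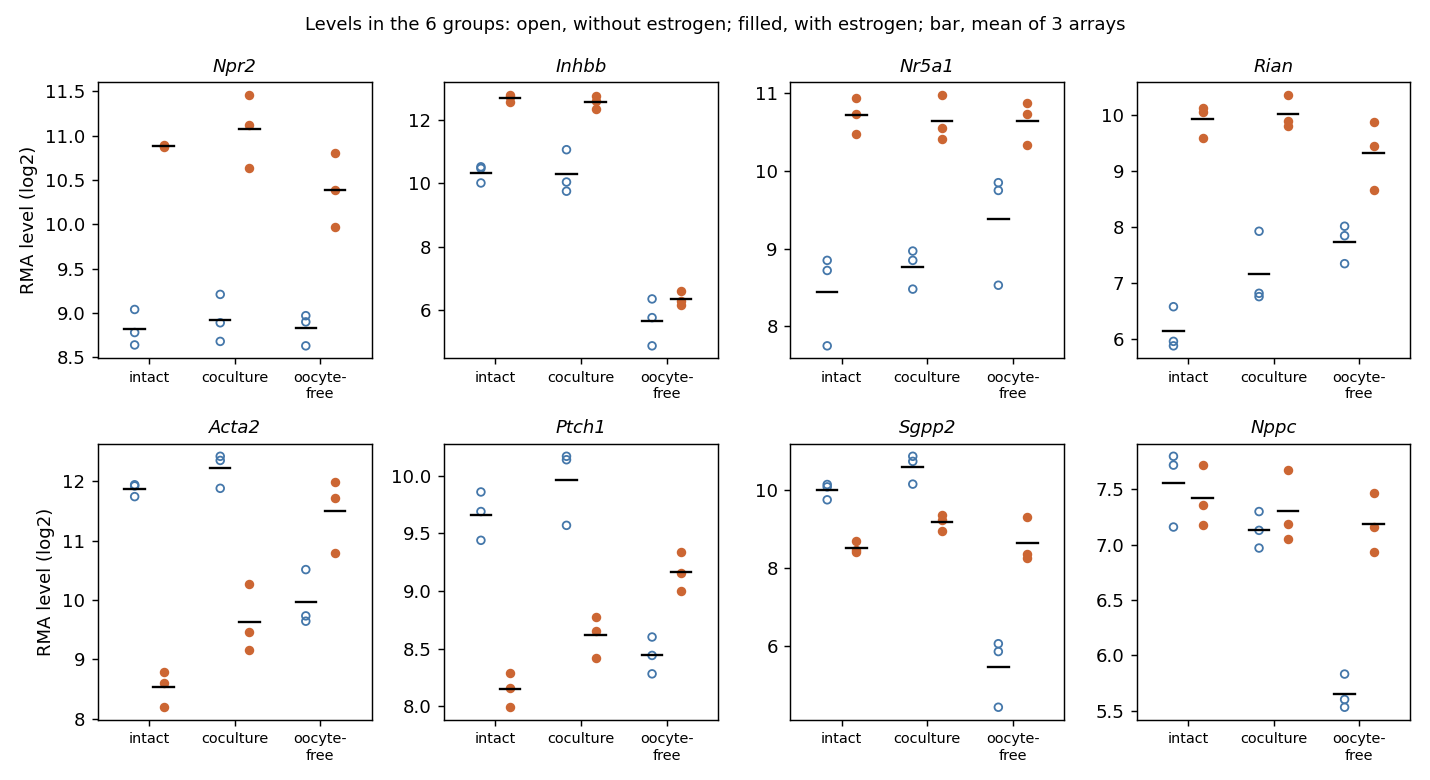
RMA level (log2, vertical axes with their own ranges) of 8 genes in intact complexes, cocultures and oocyte-free complexes, with open points for the 3 arrays without and filled points for the 3 with estrogen, and bars for group means. Npr2, Nr5a1 and Rian lie higher with estrogen in all 3 culture types, Inhbb is low in oocyte-free complexes, Acta2, Ptch1 and Sgpp2 go in opposite directions with and without oocytes, and Nppc was called with estrogen in oocyte-free complexes alone.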

How the data were processed

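RNA from cumulus cells was hybridised to Affymetrix Mouse 430 2.0 arrays after 2 rounds of amplification of 20 ng total RNA, per the labels' protocols. The deposited values are log2 expression levels that the authors made with RMA in Expression Console 1.1, per the submitters' processing notes. No genome build is named in the labels, and arrays give no read depth, so their number (3 per group) limits the precision. Array medians lay between 5.51 and 5.71.

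Of 45101 probe sets, 34945 carried 1 gene in GEO's platform annotation, 932 several and 9160 none, and 64 were controls. The symbols of 34741 were matched by Entrez ID to the RefSeq table of GRCm38.p6. Each gene was represented by its probe set with the highest mean over 18 arrays. Genes above the array median on at least 3 of the 18 arrays were kept, 12246 of 18193. limma 3.58.1 (R 4.3.3; lmFit and eBayes, 6 group means, all 18 arrays) gave log2 differences, standard errors and Benjamini-Hochberg adjusted p-values over all tested genes, with 0.05 as the threshold. The code was tested on simulated data. Tables were handled with Python 3.11.15 and pandas 2.3.3.

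Named genes were the 14 largest rises and the 14 largest falls among called genes whose groups do not overlap, preset genes of each list, called list members and the genes with the largest differences between culture types. The other genes printed, among them Foxl2, Fn1, Fos, Dcn, Pdgfra and Rrm1 and the neighbouring genes of the closing section, were chosen after their values were seen. The gene lists, their members and the comparison were chosen with earlier results of these data known. Alternatives covered the arrays in the fit, the array series, array weights, the variance model, the filter, the probe set rule, the scaling and each array left out. A summed marker level is the log2 of the sum of the linear levels of all markers with a probe set, also those below the filter. Promoter windows are RefSeq's (GRCm38.p6). 1 array (estrogen, oocyte-free, replicate 1) has conflicting labels, and its title was followed.

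The labels do not say whether the replicate numbers pair the arrays, and the main fit used no pairing. The correlations of the deviations of intact arrays that share a number were -0.079, -0.33 and -0.047. Those of intact arrays with different numbers lay between -0.161 and 0.215. The deviations of the 3 arrays of a group depend on each other, so these values cannot decide whether the arrays are paired.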

Additional observations from a re-analysis of the deposited data

Results flagged for a closer look

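The estrogen effect differed between intact and oocyte-free complexes for 393 genes by the interaction in limma, and 54 of these genes were named. Values are the intact effect minus the oocyte-free effect on the log2 scale. Among contractile and stromal genes the difference was -4.88 for Acta2, -2.45 for Mylk, -1.53 for Tagln, -1.98 for Cspg4, -2.24 for Ptch1, -1.34 for Gli1 and 3.21 for Pdgfrb. Among matrix and secreted factor genes it was -3.12 for Col11a1, -1.86 for Col4a1, -1.13 for Igfbp7, -1.93 for Fstl1, 2.46 for Tgfbi, 1.16 for Ltbp1, 2.98 for Adamts9, 3.25 for Cemip, 2.89 for Stc1, 1.83 for Angpt4 and 1.67 for Notum. Of these, Tagln, Col4a1 and Igfbp7 were not called once the fit held a term for the series (adjusted p = 0.091, 0.085 and 0.068).

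For peptide hormone and steroid genes the difference was -1.67 for Nppc, -3.64 for Crh and -2.38 for Hsd11b2. Among transporters and metabolic genes it was -1.59 for Slc38a3, -2.56 for Slc38a4, -4.63 for Sgpp2, 0.80 for Dhcr7, 2.89 for Aqp8, 2.68 for Ano1 and 2.80 for Tmem86a. For transcription and stress genes it was -2.43 for Ddit4, -1.98 for Hspb1, -1.55 for Egr1, -1.61 for Nr4a1, -1.97 for Id4, 1.00 for Id1, -2.12 for Pmepa1, 2.49 for Cbfa2t3 and 3.38 for Tle2. For RNA-binding and noncoding genes it was 3.56 for Rbfox3, -2.93 for Rbms3, 2.19 for Rian, 2.00 for Mirg and 2.00 for Plet1os.

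The others were Gm2102 (-5.18), 4933431K23Rik (-3.46), Ica1l (-2.82), Lmo7 (-2.72), Smim5 (-2.12), Cd24a (-1.59), Tmem25 (2.40), Mtcl1 (2.70), Mark1 (2.76), 2610528A11Rik (2.95), Ppp1r14a (3.40) and Cd83 (3.47). Without the oocyte-free estrogen array whose labels conflict, 47 of the 54 were called. Those not called were Col4a1, Igfbp7, Ltbp1, Id1, Dhcr7, Tagln and Pdgfrb, with adjusted p-values between 0.051 and 0.092. With the array series as a term 51 were called.

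Outside the named genes, 62 probe sets with no listed gene were called for estrogen in intact complexes.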

How the results depend on the processing

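Against 708 calls in intact complexes (422 higher, 286 lower), the 6 intact arrays alone gave 1422 (867 and 555), the array series as a term 1207 (757 and 450), the arrays of series 1 alone 1445 (911 and 534), array weights 2214 (1400 and 814), and the arrays with oocytes alone, an alternative added after the data were seen, 1145 (694 and 451). A change of at least 2-fold left 338 (186 and 152), and median centring called 443 lower. Leaving out 1 array gave 382 to 1004 calls, 209 to 596 higher and 173 to 408 lower. Besides the arrays named with the total, the higher calls were 253 without COC replicate 1, 261 without COC replicate 3, 277 without E2 COC replicate 1 and 209 without E2 COC replicate 3, and the lower calls 183 and 181 without COC replicates 1 and 2 and 174 and 173 without E2 COC replicates 2 and 3. The difference between intact and oocyte-free effects counted 268 to 689 genes with 1 array left out and 1321 with weights. The difference from cocultures counted 0 to 0 with 1 array left out, 1 with the series term and 2 with weights, and the shared calls 300 to 555 and, with weights, 1112. The replicate block gave 708 calls over 18 arrays and 755 over the 6 intact arrays. No called gene that is named turned its direction. Of 96 named calls, 68 were kept in every alternative that tested the gene. The causes of these movements were not tested.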

Other observations

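Several called genes followed each other in the order of tested genes along a chromosome, where untested genes between them were passed over. Among 12227 tested genes that the RefSeq table places, 65 pairs of genes next to each other in this order were both called in intact complexes. Of these pairs, 55 went in the same direction and 10 in opposite directions. Of all tested genes 5.78% were called, and the number of pairs that this share alone would give was not computed. These counts were not tested. Noncoding RNAs of the Dlk1-Meg3 imprinted locus rose together with Dlk1, a protein-coding gene of that locus. Meg3 went from 9.40, 8.98 and 9.14 to 11.45, 11.79 and 11.38 (2.37 ± 0.25), besides Rian and Mirg. Dlk1, which encodes a Notch-related growth regulator, went from 5.43, 5.67 and 5.21 to 6.00, 6.33 and 5.96 (0.66, adjusted p = 0.029). Meg3 also rose in cocultures (2.20) and in oocyte-free complexes (1.11).

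Some single genes outside the lists were chosen after their values were seen and stand for no group. Tap2, a peptide transporter gene, H2-Ab1, a class II chain gene, and Psmb8, an immunoproteasome gene, rose by 1.57, 1.15 and 0.80 (log2). They follow each other in the order of tested genes. Myl9, a myosin light chain gene, fell by 1.34, and the tropomyosin genes Tpm1 and Tpm2 fell by 1.44 and 0.65, while Ppp1r14a, the myosin phosphatase inhibitor gene, rose by 2.95. Other such genes were Nupr1, a stress-inducible chromatin factor gene, which fell by 2.04, Gas6, a TAM receptor ligand gene, which rose by 2.00, and the arginase gene Arg1, which rose by 2.01.

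Among called genes, 34 lay below the array median on all 3 arrays without estrogen and above it on all 3 with estrogen. Another 23 went the other way. In contrast, 342 of the genes that rose and 235 of those that fell stayed above the median on all 6 arrays. The filter asked for at least 3 arrays above the median, so the 3 arrays with estrogen alone could bring the 34 genes into the test. The 3 arrays without estrogen could do the same for the 23. Both counts therefore depend on the filter. Where a called gene had another tested probe set, 478 of 536 such probe sets had the sign of the brightest, 162 were called the same way and 0 the opposite way.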
